A study of Mus musculus with 4 samples.

Results

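The circular RNAs (circRNAs) of Gigyf2, Nemf and Eprs, host genes with roles in translation control and ribosome rescue, were examined in 4 libraries of mouse brain tissue. A circRNA of the deposited table was taken as a member when 1 or both of its ends lay on an exon boundary of one of these genes in GENCODE M21 on GRCm38. This gave 21 of the 23980 circRNAs of the table: 13 of Gigyf2, 2 of Nemf and 6 of Eprs. Both ends lay on exon boundaries for 19 of them, and 2 of Gigyf2 had 1 end on a boundary. The genes were chosen by the circRNA counts of these same libraries, among them the high counts of Gigyf2. All values below are therefore descriptions, and no p-value of a member is printed. Where a test over the whole table called a member, that call is likewise only a description.

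The middle cerebral artery was closed permanently with a filament (MCAO), a model of ischemic stroke, and tissue was taken 3 h later. The MCAO libraries were 2 parts of the infarct core, called frontal core and occipital core after the nearest lobe, and the penumbra, the poorly perfused border of the infarct. Per its title, the study sought circRNAs that mark the penumbra. The control was cortex of sham-operated mice from the regions that match core and penumbra. RNA of 6 mice was pooled for each MCAO library; how many sham mice there were, when they were sampled, and the strain, sex and age are not stated in the labels. Each condition is 1 library, so a difference between conditions cannot be told apart from a difference between pools.

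CircRNAs form when a downstream splice donor is joined back to an upstream splice acceptor, and they are known to be abundant in brain. Gigyf2 encodes a translational repressor that acts with the cap-binding protein 4EHP and is recruited to collided ribosomes. Nemf binds the large ribosomal subunit that still carries a stalled nascent chain, helps the ligase listerin to mark that chain, and extends it with a C-terminal tail. Eprs encodes the bifunctional glutamyl-prolyl-tRNA synthetase, which charges glutamate and proline tRNAs and in human monocytic cells also joins a complex that represses translation of inflammatory mRNAs.

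One circle led each gene, and the results turn on its back-splice junction. The 100 bases before this junction, which end the circle, and the 200 bases after it, which begin the circle, are shown as 1 run, 5′ to 3′ on the strand of the host, from GENCODE M21 transcripts. Capitals mark the 15 bases on each side of the junction. In Gigyf2 they also mark 27 bases in exon 4 (bases 80 to 106 of the circle, codons 41 to 49) that match the 4EHP-binding motif known in GIGYF proteins.
Gigyf2 exons 4 to 8, chr1:87364104-87380008, 494 bases: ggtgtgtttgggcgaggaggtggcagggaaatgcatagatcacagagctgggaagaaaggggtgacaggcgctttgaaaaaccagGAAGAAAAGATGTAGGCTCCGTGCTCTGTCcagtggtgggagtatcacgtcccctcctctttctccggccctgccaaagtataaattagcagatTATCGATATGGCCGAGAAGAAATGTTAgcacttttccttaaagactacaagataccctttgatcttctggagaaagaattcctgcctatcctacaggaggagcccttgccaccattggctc
Nemf exons 23 to 25, chr12:69320373-69322350, 343 bases: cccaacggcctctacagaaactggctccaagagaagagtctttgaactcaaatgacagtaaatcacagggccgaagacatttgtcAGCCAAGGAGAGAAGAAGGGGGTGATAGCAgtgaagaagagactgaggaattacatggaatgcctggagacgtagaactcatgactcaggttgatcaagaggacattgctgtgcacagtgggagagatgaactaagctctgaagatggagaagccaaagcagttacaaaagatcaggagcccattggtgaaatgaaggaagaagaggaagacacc
Eprs exons 11 to 15, chr1:185386246-185397267, 601 bases: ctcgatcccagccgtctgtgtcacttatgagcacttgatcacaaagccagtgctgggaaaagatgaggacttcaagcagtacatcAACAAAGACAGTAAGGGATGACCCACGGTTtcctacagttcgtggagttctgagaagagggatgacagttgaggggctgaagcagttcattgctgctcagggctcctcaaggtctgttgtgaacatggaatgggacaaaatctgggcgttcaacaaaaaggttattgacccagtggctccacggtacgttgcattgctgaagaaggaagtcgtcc

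All 3 of these circles consist of coding exons and none holds the annotated start codon. Exon numbers follow transcription in the transcript model with the most exons (29 in Gigyf2, 33 in Nemf and 32 in Eprs). The Gigyf2 circle spans codons 14 to 179 of 1291, the Nemf circle codons 697 to 811 of 1064 and the Eprs circle codons 450 to 650 of 1512. The table gives no strand. Kcnj13, a potassium channel gene, and 2 small nuclear RNA genes lie on the opposite strand within Gigyf2, and Klhdc2 overlaps Nemf on the opposite strand. No member had another protein-coding candidate host by its exon boundaries.

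**Figure D1:**
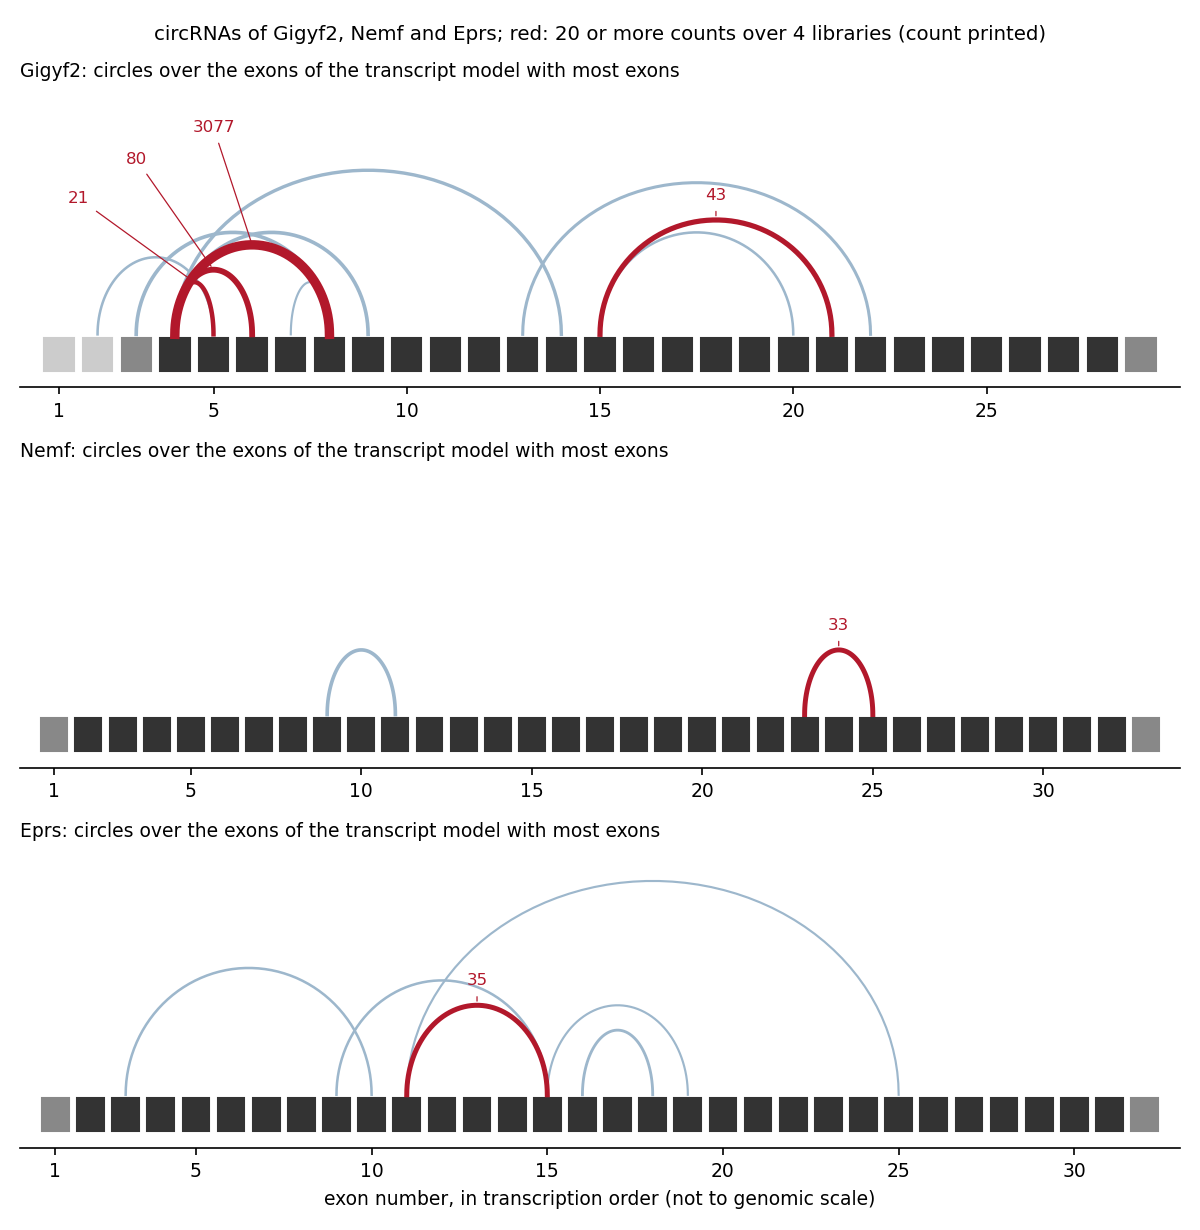
Each arc is a circRNA with both ends on exon boundaries, drawn from its first to its last exon (x axis: exon number in transcription order). Dark boxes are coding exons, grey boxes partly coding and light boxes untranslated. The 6 red arcs have 20 or more counts over the 4 libraries, from 21 to 3077, and 3 of the 4 red arcs of Gigyf2 leave from exon 4.

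Sequencing gave 121393 circRNA counts in the frontal core, 83090 in the occipital core, 96349 in penumbra and 106558 in sham. Levels are given as counts per 1000000 circRNA counts of the library (CPM), with 95% Poisson intervals in square brackets, and ratios of CPM with 95% exact conditional (Clopper-Pearson) intervals. Both cover counting error only, and without molecular identifiers reads cannot be counted as separate molecules. A level of 3 counts was 24.7 CPM in the frontal core, 36.1 in the occipital core, 31.1 in penumbra and 28.2 in sham. As a check of the tissue, all 7 neuronal marker genes hosted circRNAs, which summed to 20133 CPM in the frontal core, 22313 in the occipital core, 21495 in penumbra and 20496 in sham. Of 5 astrocyte markers 2 were hosts, with 198, 217, 249 and 122 CPM in the same libraries, while Slc1a3, Gfap and Aqp4 were at 0. Among oligodendrocyte markers St18 was a host, at most at 36.1 CPM in a library, and Mbp, Mobp and Mog were at 0. Of 4 endothelial markers 1 was a host (Pecam1, at most 12 CPM), Flt1, Cldn5 and Mecom being at 0, and all 4 microglial markers (Csf1r, Cx3cr1, P2ry12 and Tmem119) were at 0. Of 5 striatal markers, Meis2 and Rarb were hosts and Drd1, Drd2 and Ppp1r1b were at 0, with 124 CPM in the frontal core, 120 in the occipital core, 93.4 in penumbra and 75.1 in sham. The neuronal sum came mostly from Rims1 and Rims2, with 4454 and 2705 counts over the 4 libraries, while Snap25 had 7. A marker at 0 hosted no circRNA of the table, which does not show that its cells were absent. The part of cell composition in the values below was not tested, and fewer cells of a type cannot be told apart from less circRNA per cell.

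Gigyf2 ranked as host 5 of 5295 by summed circRNA counts, with 3281 counts over the 4 libraries. It had 920 counts in the frontal core, 629 in the occipital core, 787 in penumbra and 945 in sham. Its level was 7579 CPM [7097–8085] in the frontal core, 7570 [6990–8186] in the occipital core, 8168 [7607–8759] in penumbra and 8868 [8312–9452] in sham. By value sham was thus highest, penumbra next, and the cores were lowest and close to each other. With counts scaled to library totals, the place of penumbra lay within counting error. The ratio of penumbra to sham was 0.921 [0.837–1.01]. Ratios to penumbra were 0.928 [0.843–1.02] for frontal core and 0.927 [0.833–1.03] for occipital core.

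Nearly all of these counts came from the circle of exons 4 to 8. It had 864 counts in the frontal core, 589 in the occipital core, 737 in penumbra and 887 in sham, which made it circRNA 3, 2, 3 and 2 of the table by rank in those libraries. Its level was 7117 CPM in the frontal core, 7089 in the occipital core, 7649 in penumbra and 8324 in sham. The ratio to sham was 0.855 [0.778–0.940] for frontal core, 0.852 [0.766–0.946] for occipital core and 0.919 [0.832–1.01] for penumbra. The cores themselves were level, with a ratio of frontal core to occipital core of 1.00 [0.903–1.12]. With this scaling neither core could be placed apart from penumbra beyond counting error. Its ratios to penumbra were 0.930 [0.842–1.03] for frontal core and 0.927 [0.830–1.03] for occipital core.

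A departure from sham of this size was common among abundant circRNAs. Of the 68 circRNAs with 300 or more counts over frontal core and sham, 35.3% had an interval of the ratio that left out 1, and 17 had a ratio at or below that of the Gigyf2 circle, itself included. For occipital core and sham, the interval left out 1 for 42% of 50 such circRNAs, and 11 were at or below it.

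The share of Gigyf2 counts in this circle was the same in every library within counting error. It was 93.9% [92.2–95.4] in the frontal core, 93.6% [91.4–95.4] in the occipital core, 93.7% [91.7–95.3] in penumbra and 93.9% [92.1–95.3] in sham (exact binomial intervals). The remaining circles summed to 461 CPM in the frontal core, 481 in the occipital core, 519 in penumbra and 544 in sham. Of the 58 host genes with 1000 or more counts, the median share of the top circle was 60.9%, and Gigyf2 was 5 from the top, after Ksr2, Med13l, Hnrnpu and Fat3. Among 874 hosts with 100 or more counts, whose median share was 49.1% (quartiles 32.4% and 73.3%), 82 were at or above the share of Gigyf2, itself included.

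**Figure D2:**
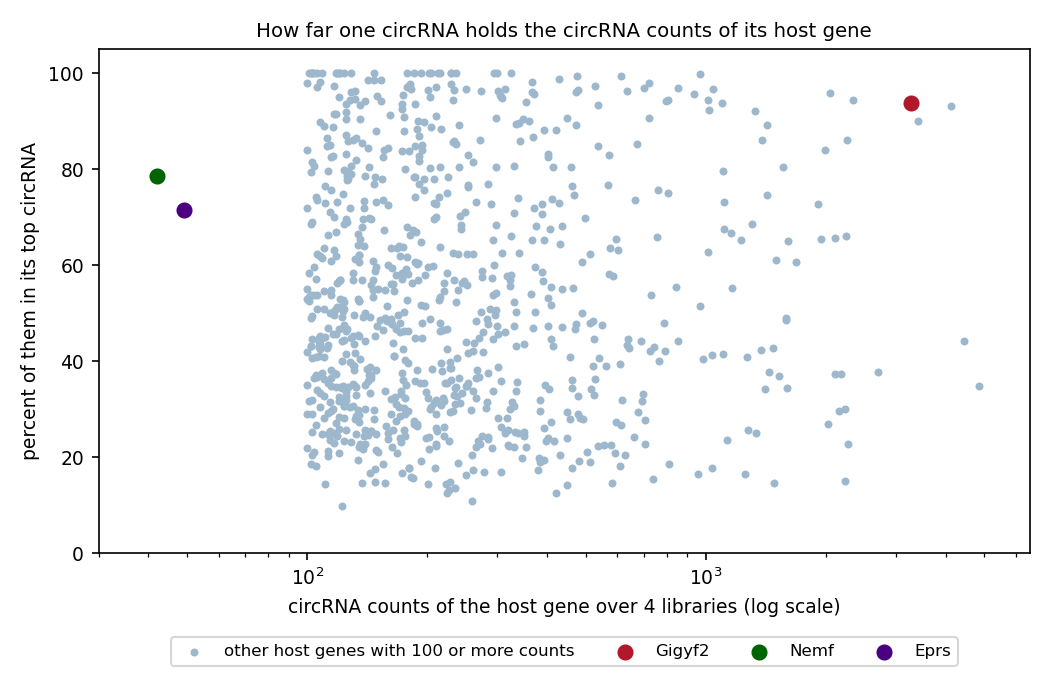
Each point is a host gene: its circRNA counts over the 4 libraries (x axis, log scale) against the percent of them in its most abundant circRNA (y axis). Gigyf2 lies at 93.8% with 3281 counts, Nemf at 78.6% with 42 counts and Eprs at 71.4% with 49 counts, both left of the other host genes, which were plotted from 100 counts on.

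The acceptor of exon 4 was shared by 7 of the 13 Gigyf2 circRNAs, which held 98.0% of the gene's counts. Without the circle of exons 4 to 8 these circRNAs still held 139 of the remaining counts, or 68.1%. The donor of exon 8 was used by 3 circRNAs with 94.1% of the counts, but without the leading circle by only 11 counts, or 5.39%. Thus by counts the lesser circles shared the start of the leading circle far more than its end. Of the 139 counts, 80 came from the circle of exons 4 to 6 alone.

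The junctions of the 6 circRNAs with 20 or more counts are printed next because they show this shared start. Each has the last 20 bases of the circle in lower case, joined to its first 20 bases in capitals. Of the 4 Gigyf2 junctions, 3 carry the same capitals.
Gigyf2 exons 4 to 8: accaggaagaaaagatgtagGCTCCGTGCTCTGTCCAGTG
Gigyf2 exons 4 to 6: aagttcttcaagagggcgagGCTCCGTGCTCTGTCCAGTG
Gigyf2 exons 4 to 5: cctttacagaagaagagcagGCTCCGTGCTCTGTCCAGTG
Gigyf2 exons 15 to 21: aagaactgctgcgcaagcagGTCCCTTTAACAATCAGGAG
Nemf exons 23 to 25: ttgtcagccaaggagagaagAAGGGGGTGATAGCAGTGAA
Eprs exons 11 to 15: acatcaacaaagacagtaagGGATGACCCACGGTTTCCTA

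The second Gigyf2 circle, of exons 4 to 6 (chr1:87364104-87374111, 341 bases), had 20 counts in the frontal core, 11 in the occipital core, 23 in penumbra and 26 in sham. Its level was 165, 132, 239 and 244 CPM in the same libraries. It was lower in both cores than in sham and penumbra by value, but the ratio to sham of 0.675 [0.357–1.26] for frontal core and of 0.543 [0.242–1.14] for occipital core did not leave out 1. The penumbra to sham ratio was 0.978 [0.533–1.78].

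The shortest circle of this start, exons 4 to 5 (chr1:87364104-87365279, 226 bases), had 4 counts in the frontal core, 6 in the occipital core, 8 in penumbra and 3 in sham. The values give a ratio of penumbra to sham of 2.95 [0.708–17.3] and of frontal core to penumbra of 0.397 [0.0875–1.48], so these counts do not order the libraries.

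A separate circle of exons 15 to 21 (chr1:87416818-87428728, 890 bases) covers codons 548 to 844. It had 7 counts in the frontal core, 13 in the occipital core, 11 in penumbra and 12 in sham. Setting frontal core over occipital core gave 0.369 [0.125–0.994], at the edge of counting error, and frontal core to sham 0.512 [0.171–1.41]. The other 3 libraries could not be told apart from each other, at 157 CPM in the occipital core, 114 in penumbra and 113 in sham. The frontal core had 57.7 CPM.

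The other 9 Gigyf2 circRNAs had from 2 to 19 counts over the 4 libraries. The most abundant of them joins exon 4 to a position 585 bases past the end of exon 8 (chr1:87364104-87380593), where no annotated exon lies. It had 6 counts in the frontal core, 0 in the occipital core, 7 in penumbra and 6 in sham. The second one-ended circRNA stops 4 bases short of the end of exon 8 and had 3 counts in all. Circles of exons 3 to 8 and 2 to 5 hold the annotated start codon and had 9 and 3 counts in all. The introns beside these circles recur. The 4950-base intron between exons 14 and 15 follows the circle of exons 4 to 14 and precedes those of exons 15 to 21 and 15 to 20.

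**Figure D3:**
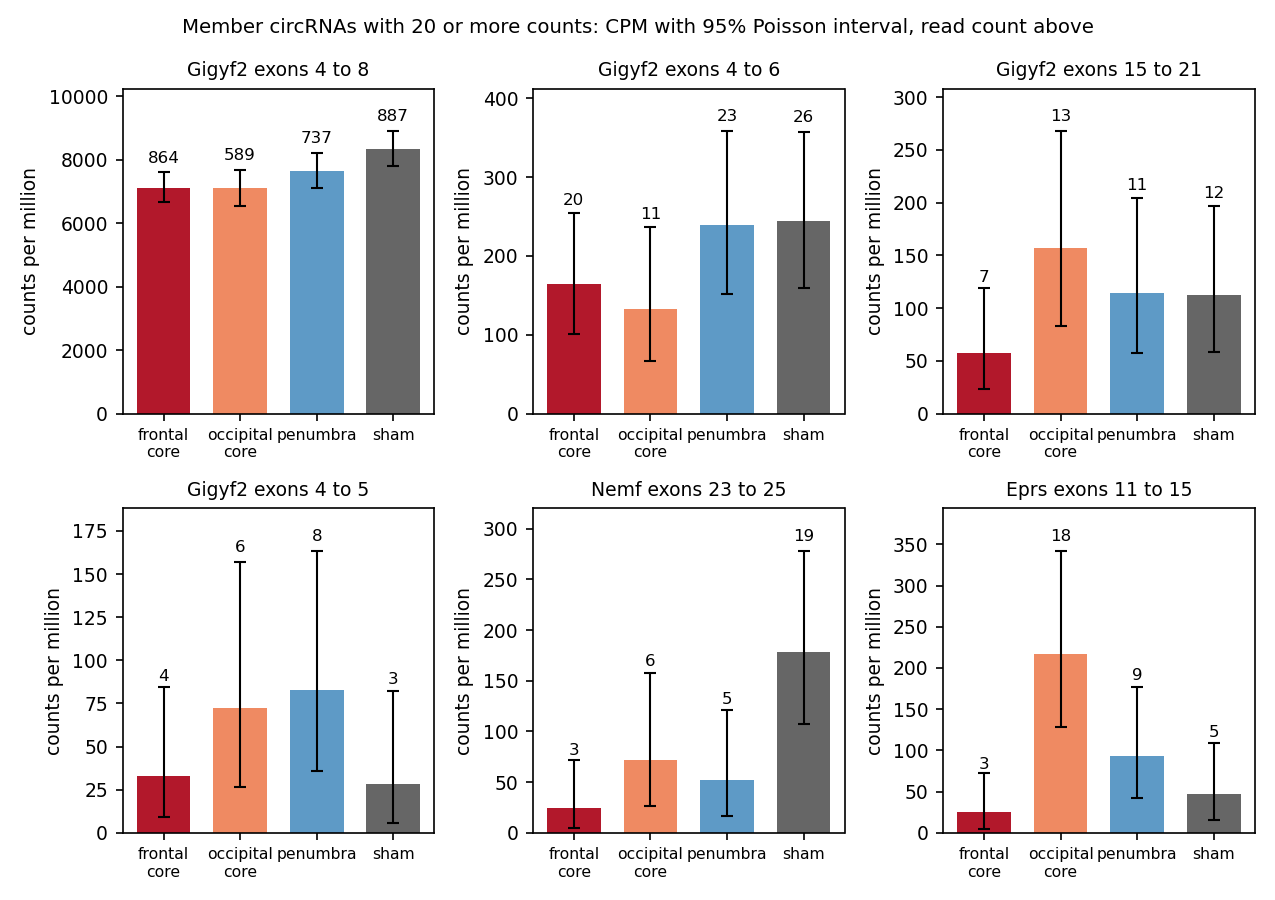
Bars give the CPM of the 6 circRNAs with 20 or more counts in each library, error bars the 95% Poisson interval, and the number above each bar its read count. The Gigyf2 circle of exons 4 to 8 varies between 7089 and 8324 CPM, the Nemf circle is highest in sham at 178 CPM and the Eprs circle is highest in the occipital core at 217 CPM.

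Nemf, the ribosome rescue factor, had 42 counts in 2 circles and ranked as host 1629. The gene sum was 3 counts in the frontal core, 9 in the occipital core, 8 in penumbra and 22 in sham, or 24.7, 108, 83 and 206 CPM. All 3 MCAO libraries were lower than sham, frontal core most. The ratio to sham was 0.120 [0.0229–0.398] for frontal core, 0.525 [0.213–1.19] for occipital core and 0.402 [0.155–0.938] for penumbra. The frontal core library was also lower than occipital core, with a ratio of 0.228 [0.0397–0.914], while frontal core to penumbra was 0.298 [0.0509–1.24] and occipital core to penumbra 1.31 [0.447–3.89].

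The leading Nemf circle, exons 23 to 25, had 3 counts in the frontal core, 6 in the occipital core, 5 in penumbra and 19 in sham. Its level was 24.7 CPM [5.10–72.2] in the frontal core, 72.2 [26.5–157] in the occipital core, 51.9 [16.9–121] in penumbra and 178 [107–278] in sham. Only frontal core had a Poisson interval wholly below that of sham. The ratio to sham was 0.139 [0.0263–0.471] for frontal core, 0.405 [0.132–1.06] for occipital core and 0.291 [0.0849–0.806] for penumbra. The order occipital core, penumbra, frontal core among the MCAO libraries lay within counting error, occipital core to penumbra being 1.39 [0.354–5.76].

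The second Nemf circle, exons 9 to 11 (chr12:69344129-69344979, 210 bases, 36.7% GC), had too few counts to be compared with the first. It had 0 counts in the frontal core and 3 in each of occipital core, penumbra and sham, and the 95% Poisson interval of the count of 0 reached 30.4 CPM. The share of the leading circle in the Nemf counts was 3 of 3 counts in the frontal core, 66.7% [29.9–92.5] in the occipital core, 62.5% [24.5–91.5] in penumbra and 86.4% [65.1–97.1] in sham, so these shares could not be told apart at this depth.

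Eprs, the tRNA synthetase, had 49 counts in 6 circles and ranked as host 1489. The gene sum was 9 counts in the frontal core, 24 in the occipital core, 10 in penumbra and 6 in sham, or 74.1, 289, 104 and 56.3 CPM. The occipital core library stood above the other 3 libraries, which could not be told apart from each other at 6 to 10 counts. Its ratio was 5.13 [2.04–15.3] to sham and 2.78 [1.28–6.52] to penumbra, and frontal core to occipital core was 0.257 [0.105–0.572]. The ratio of frontal core to sham was 1.32 [0.419–4.50] and penumbra to sham 1.84 [0.607–6.17].

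The leading Eprs circle, exons 11 to 15, had 3 counts in the frontal core, 18 in the occipital core, 9 in penumbra and 5 in sham. Its level was 24.7 CPM [5.10–72.2] in the frontal core, 217 [128–342] in the occipital core, 93.4 [42.7–177] in penumbra and 46.9 [15.2–110] in sham. The level in the occipital core was highest and its interval lay above those of frontal core and sham but overlapped that of penumbra. The ratio of occipital core was 4.62 [1.65–15.9] to sham and 2.32 [0.989–5.86] to penumbra. For frontal core to occipital core it was 0.114 [0.0215–0.391], frontal core to penumbra 0.265 [0.0461–1.06] and penumbra to sham 1.99 [0.599–7.56].

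The other 5 Eprs circles had 2 to 4 counts each. Together they had 6 counts in the frontal core, 6 in the occipital core, 1 in penumbra and 1 in sham. In frontal core they were thus 6 of the 9 Eprs counts, and the leading circle held 33.3% [7.49–70.1] there, against 75% [53.3–90.2] in the occipital core, 90.0% [55.5–99.8] in penumbra and 83.3% [35.9–99.6] in sham. The acceptor of exon 11 and the donor of exon 15 were each used by 2 circles. The 1135-base intron before exon 11 also follows the circle of exons 3 to 10, and the 1126-base intron after exon 15 also precedes the circle of exons 16 to 18.

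**Figure D4:**
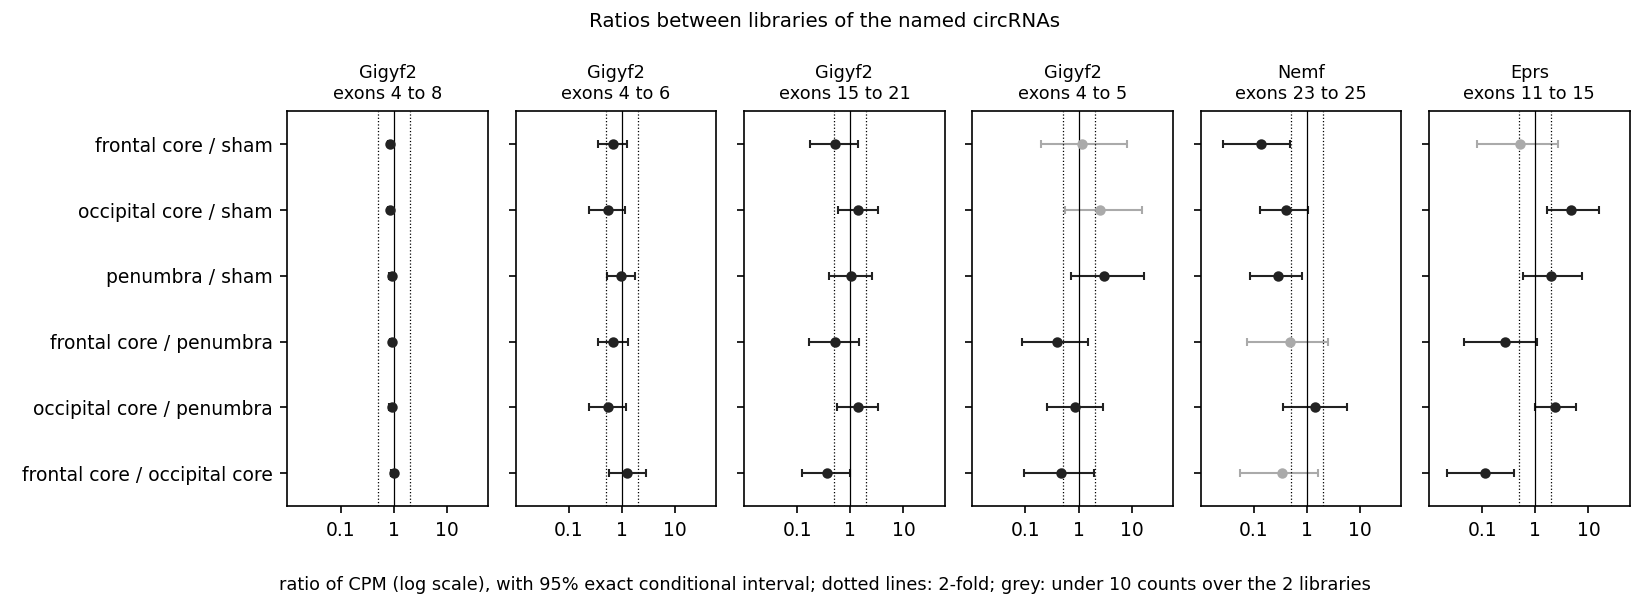
Points are ratios of CPM between 2 libraries for the 6 circRNAs (x axis, log scale) and bars their 95% exact conditional interval; dotted lines mark 2-fold and grey points rest on fewer than 10 counts over the 2 libraries. The leading Gigyf2 circle stays between 0.852 and 1.00, whereas the Nemf ratio of frontal core to sham is 0.139 and the Eprs ratio of frontal core to occipital core is 0.114.

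The number of members past 2-fold was read against the whole table, over circRNAs with 10 or more counts in the 2 libraries. Between frontal core and sham 1 of 5 members was past 2-fold, the Nemf circle, where 26.5% of all 4152 circRNAs were. Between occipital core and sham 2 of 5 were, the Eprs circle higher and the Nemf circle lower, where 24.4% of all were. Between penumbra and sham 2 of 7 were, Gigyf2 exons 4 to 5 higher and the Nemf circle lower, where 23.8% of all were. The Eprs circle lay just inside the limit there, at 1.99. Members near the limit rest on few counts, so the side on which they fall carries little weight.

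Between frontal core and penumbra 2 of 6 members were past 2-fold, Gigyf2 exons 4 to 5 and the Eprs circle, both lower, against 24.4% of all. Between occipital core and penumbra 1 of 6 was, the Eprs circle, which was higher, against 20.4% of all (8.91% higher). Between frontal core and occipital core 3 of 5 were, all lower, against 25.6% of all: Gigyf2 exons 15 to 21, Gigyf2 exons 4 to 5 and the Eprs circle. Fisher's exact test over the whole table, with Benjamini-Hochberg adjustment and a 2-fold limit, called 1 member between frontal core and sham (the Nemf circle; 0.747% of all called) and 1 between frontal core and occipital core (the Eprs circle; 0.344% of all called). It called 0 members in the other 4 pairs, where it called 0.467% of all between occipital core and sham, 0.0538% between penumbra and sham, 0.934% between frontal core and penumbra and 0.0606% between occipital core and penumbra. The 95% interval of the ratio left out 1 for the Gigyf2 circle of exons 4 to 8 and the Nemf circle between frontal core and sham (12.5% of all), and for the same Gigyf2 circle and the Eprs circle between occipital core and sham (11.2% of all). It did so for the Nemf circle between penumbra and sham (9.39% of all), and for Gigyf2 exons 15 to 21 and the Eprs circle between frontal core and occipital core (10.4% of all). Between frontal core and penumbra it did so for 0 members, against 11.2% of all, and between occipital core and penumbra for 0, against 5.76% of all. Since the genes were chosen with these counts known, nothing is read from these counts of members, and such a test compares 2 libraries, not conditions.

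The leading circles differed in the introns around them, which the choice of members did not use. Over the 3124 circRNAs with 20 or more counts, known sequence and introns on both sides, only 1.92% had both flanking introns no longer than the longer one of the Eprs circle (1135 bases before it and 1126 after it). For the Nemf circle (1881 and 2192 bases) this was 5.41%, and for the Gigyf2 circle of exons 4 to 8 (9617 and 23658 bases) 52.9%. The Gigyf2 circle thus had flanking introns of middling length and the Nemf and Eprs circles short ones.

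In GC content and spliced length the leading circles were not at the ends of the table. They had a GC content of 49.2% in Gigyf2, 45.8% in Nemf and 46.6% in Eprs, and 61.4%, 37.7% and 44.0% of those 3124 circRNAs had no more. Their spliced lengths of 494, 343 and 601 bases stood at 50.6%, 29.6% and 60.9% in the same way. Of the 17 members made of coding exons alone, 4 had a length that is a multiple of 3 (23.5%), which keeps the reading frame around the circle, against 39.2% of 16068 such circRNAs of the table. None of the 6 with 20 or more counts was among these 4, where 39.3% of all coding circRNAs with as many counts had such a length. Of the 19 members with both ends on exon boundaries, 1 began at exon 2 (5.26%), against 24% of all 19586 circRNAs with known sequence. Exon 4 began 5 of them (26.3%), all of Gigyf2 and with the same acceptor, against 9.74% of all.

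For each gene, the host genes with the most similar summed CPM over the 4 libraries were found by the root mean square difference of centred log2 CPM, among hosts with at least 100 counts. For Gigyf2 these were Cadps (0.0127), Cdk17 (0.0232) and Rere (0.0350), where the median of 873 hosts was 0.238. Cadps, which primes synaptic vesicles, had 1845 CPM in the frontal core, 1890 in the occipital core, 2014 in penumbra and 2187 in sham. For Nemf they were Gm34237 (0.566), Ccdc30 (0.598) and Papola, a poly(A) polymerase (0.653), against a median of 1.14. Gm34237 had 140 CPM in the frontal core, 241 in the occipital core, 228 in penumbra and 441 in sham. For Eprs they were Ccar2 (0.411), Bicral (0.440) and C2cd5 (0.486), against a median of 0.916. Ccar2 had 231 CPM in the frontal core, 409 in the occipital core, 249 in penumbra and 131 in sham. The Nemf and Eprs patterns rest on 42 and 49 counts. The Gigyf2 pattern was nearly flat, between -0.08 and 0.14 in centred log2 CPM, and Cdk17 had 61 to 95 counts a library. Counting error was not taken into account in these distances, so the order of the hosts most like Gigyf2 carries little weight.

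Other genes of the same pathways were described by 4 lists. Of 32 genes of ribosome rescue and quality control 16 hosted 50 circRNAs, with 690 counts, of which Nemf held 42. Tcf25, a partner of listerin, led with 302 counts and Ascc3, a helicase that splits collided ribosomes, followed with 214. Ltn1, the gene of listerin, hosted 2 circRNAs with 5 counts in the frontal core, 2 in the occipital core, 0 in penumbra and 0 in sham. No circRNA was assigned to Zfp598, the sensor of collided ribosomes; these genes and Eif4e2 were looked up as known partners of Nemf and Gigyf2. Beside the members, 5 circRNAs of this list were tested between frontal core and sham, 1 higher and 1 lower past 2-fold, against 15.1% and 11.4% of all 4152.

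Of 45 genes of 4EHP-GIGYF2 repression, CCR4-NOT and decapping, 32 were hosts with 5879 counts, of which Gigyf2 held 3281. Among its other hosts, Pan3 had 568, Cpeb3 321, Cnot6l 175 and Cnot2 146 counts. Eif4e2, which encodes 4EHP, had 2 counts in all. Beside the members, 9 of 34 tested circRNAs of this list were higher and 5 lower past 2-fold between frontal core and sham, against 15.1% and 11.4% of all. Between occipital core and sham 2 of 25 were higher and 6 lower, against 11.3% and 13.1% of all. Between penumbra and sham 6 of 28 were higher and 4 lower, against 11.1% and 12.7% of all. Their median ratio was 1.08, 0.832 and 0.913 in these comparisons, where that of all circRNAs was 1.02, 0.962 and 1.01.

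Of 24 genes of cytosolic tRNA synthetases and their complex, 10 were hosts with 274 counts, of which Eprs held 49. With Eprs included, the list summed to 585 CPM in the frontal core, 1059 in the occipital core, 612 in penumbra and 526 in sham. Eprs gave 24 of its 88 counts in the occipital core and 6 of its 56 in sham. The sum is therefore not an observation separate from Eprs. Farsa, a subunit of the phenylalanine enzyme, had the most counts, 26 in the frontal core, 26 in the occipital core, 20 in penumbra and 21 in sham. Without the members only 3 circRNAs of this list were tested between occipital core and sham. Of these 2 were higher past 2-fold, against 11.3% of all 3424. Vars exons 21 to 22 had 8 counts in the occipital core and 4 in sham, a ratio of 2.565 [0.687–11.6]. Iars exons 11 to 13 had 7 and 3, a ratio of 2.99 [0.683–17.9]. Both were named after their values were seen, and both intervals include 1. Vars hosted only this 1 circRNA. Over all its circRNAs Iars had 10 counts in the occipital core and 11 in sham, or 120 and 103 CPM. Between frontal core and sham 1 of 2 was higher, between penumbra and sham 0 of 2, between frontal core and penumbra 0 of 2, between occipital core and penumbra 1 of 3, and between frontal core and occipital core 0 of 3 were higher and 1 was lower. The shares of all circRNAs that were higher in these pairs were 15.1%, 11.1%, 12.9%, 8.91% and 14.8%, and 10.8% were lower between the cores. Of 65 genes of initiation, elongation and the eIF2alpha kinases 29 were hosts with 1290 counts, led by Eif4e with 211, and of 11 tested between frontal core and sham 1 was higher and 1 lower past 2-fold, against 15.1% and 11.4% of all 4152.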

How the data were processed

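RNA of mouse brain tissue was depleted of ribosomal RNA and made into directional libraries, per the labels' protocols. The authors deposited whole-number read counts per circRNA, and the submitters' processing notes name TopHat2 2.0.10, Bowtie and mm9; the circRNA caller is not given in the sources used here. The coordinates match GRCm38: 89.1% of starts and 89.7% of ends lay on GENCODE M21 exon boundaries, against 0.192% of starts moved by 1 base. The FPKM values the authors deposited equalled count over genomic span and library total, to a relative difference of 5.15e-15, so only counts were used, and the column of genomic spans (other) only to check this.

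Counts were scaled to the library total. Columns were matched to libraries by the names in their labels. Python 3.11.15, scipy 1.17.1, edgeR 4.0.16 (TMM) and DESeq2 1.42.0 (size factors) were used. The 6 pairs of libraries were compared. Fisher's exact test (two-sided) ran over all circRNAs with 10 or more counts, called at an adjusted p under 0.05 and 2-fold. It was first run on simulated Poisson counts for frontal core and sham, with changes set only in circRNAs of 30 or more counts. That simulation held no variation between pools, so it does not show how the calls behave under such variation or at lower counts. A count of 0 was set to 3 for a fold. Named were members with 20 or more counts, and pathway hosts with 100 or more, at most 6 a list. The members and lists were chosen with earlier results of these data known. Flanking intron sequences were not analysed here, and a marker and a listed host are not reported here.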

Additional observations from a re-analysis of the deposited data

Results flagged for a closer look

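By value the leading Eprs circle (exons 11 to 15) was lower in the frontal core than in sham and higher in the occipital core. Its ratio of frontal core to occipital core was 0.114 [0.0215–0.391]. The ratio of frontal core to sham, from 3 and 5 counts, was 0.527 [0.0818–2.71], so that its direction is not resolved. The Gigyf2 circle of exons 15 to 21 also lay below sham in the frontal core and above it in the occipital core by value. Its ratio of frontal core to occipital core was 0.369 [0.125–0.994]. Against sham neither direction is resolved, at 0.512 [0.171–1.41] for frontal core and 1.39 [0.584–3.33] for occipital core. Each of these regions is a single library, so that the difference between regions was not tested.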

How the results depend on the processing

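The 36 ratios of the named circRNAs and the 18 ratios of gene sums stayed within their counting intervals under TMM factors, DESeq2 size factors and a total limited to circRNAs with both ends on exon boundaries, as did the gene sums and shares of the leading circle without one-ended circRNAs. TMM factors moved these ratios most, by a factor of 0.916 to 1.06. They took the ratio of occipital core to penumbra to 0.850 for both the leading Gigyf2 circle and the Gigyf2 sum. With library totals it was 0.927 for each. Intervals were not recomputed under TMM factors, so the statement that these lay within counting error holds for library totals only. With the GC trend removed, an alternative chosen after seeing the data, the named ratios moved by a factor of 0.871 to 1.07. The Nemf call between frontal core and sham and the Eprs call between frontal core and occipital core held under TMM factors, DESeq2 size factors and the GC correction. Both ended without the count filter, where 0 members were called because more circRNAs share the adjustment, and at a filter of 30 counts, where neither circle was tested. At 30 counts only the Gigyf2 circles of exons 4 to 8 and 4 to 6 were left to be tested, and 0 members were past 2-fold in any pair. Every member past 2-fold in the main setting had fallen to that filter, so this 0 says nothing about the members. The genes were chosen with these counts known, so a call that held is no support for a difference.

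In the order frontal core, occipital core and penumbra to sham, then frontal core and occipital core to penumbra, then frontal core to occipital core, all circRNAs past 2-fold numbered 2890, 2355, 2473, 2681, 2077 and 2505 without the count filter and 117, 95, 80, 114, 40 and 89 at 30 counts. Without the filter members past 2-fold were 3 of 20, 3 of 21, 3 of 16, 3 of 18, 2 of 20 and 7 of 21 in the same order. Over all circRNAs tested these were 2890 of 21388, 2355 of 21045, 2473 of 21227, 2681 of 21503, 2077 of 21123 and 2505 of 21202. A circRNA with 3 or fewer counts in both libraries counted as tested but could not be past 2-fold. The 7 of 21 include ratios from 6 against 2 and from 4 against 1 counts, so nothing is read from them. Fisher's test called 4, 3, 2, 4, 0 and 3 circRNAs of the table without the filter; at 30 counts it called 26 between occipital core and sham and 8 between penumbra and sham. With the GC trend removed it called 3 between occipital core and sham, 6 between penumbra and sham, 0 between occipital core and penumbra and 6 between frontal core and occipital core. The cause of these GC changes was not tested.

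No paired analysis was possible because each group has 1 library. Leaving out a replicate was not possible for the same reason. The Nemf and Eprs values rest on 3 to 22 and 6 to 24 counts a library, and at this depth only differences of several fold leave out 1.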
